A study of Homo sapiens with 24 samples.

Results

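Long noncoding genes that carry small nucleolar RNAs (snoRNAs) in their introns, and whose spliced RNA is known to respond to translation, were followed in breast cancer cells with and without knockdown of ADAR1, the double-stranded RNA editing enzyme encoded by ADAR. The 10 genes considered were GAS5, SNHG1, SNHG5, SNHG6, SNHG8, SNHG12, SNHG15, SNHG16, ZFAS1 and EPB41L4A-AS1, and they were matched to the 37416 gene rows of the count tables by Ensembl identifier. Only 3 of the 10 had a row of their own: SNHG8, EPB41L4A-AS1 and SNHG15. The other 7 are not analysed here as whole genes. For 6 of them, rows for smaller RNAs lie inside the gene on the same strand, and those rows are described below. GAS5 had neither.

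The cells were 4 human lines named in the labels as triple-negative breast cancer, BT549, HCC1806, MDAMB231 and MDAMB468, all cultured lines and not primary tissue. Each carried a lentiviral short hairpin RNA (shRNA) against ADAR1 (shADAR1) or a non-targeting one (shNT), so every culture, controls included, was infected and selected with puromycin. Infection was for 24 h and selection for 72 h at 2 µg/ml puromycin in all groups. Each of the 8 groups had 3 libraries labelled as biological replicates, which makes 24 libraries of ribosomal-RNA-depleted total RNA. The number of hairpins and their sequences are not given in the sources used here, so other effects of a hairpin cannot be told apart from the loss of ADAR1.

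A snoRNA host gene is transcribed as a precursor whose introns are trimmed to snoRNAs, the guides for chemical modification of ribosomal RNA, while its exons are joined into another RNA. Several of these spliced RNAs reach the cytoplasm, are engaged by ribosomes at short open reading frames, and are then destroyed by nonsense-mediated decay, the pathway that removes RNAs with an early stop codon. When translation is blocked the spliced RNA is known to accumulate, whereas the intronic snoRNAs do not depend on that decay. Many of the hosts also begin with a 5′ terminal oligopyrimidine (TOP) tract, the element through which growth signals control the translation of ribosomal protein mRNAs.

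The start sequences are shown first, because the TOP tract is a feature of these genes that bears on translation. For every host but SNHG6 the first 30 bases of an annotated transcript are printed from GENCODE 29 (GRCh38), 5′ to 3′, with the run of C and T that begins at an initial C in capitals. A start was counted as TOP when an initial C was followed by at least 4 further C or T bases. The start shown is the TOP start used by the most transcripts of the gene. In SNHG15 and EPB41L4A-AS1, where no transcript has one, no start was used by more than 1 transcript. For these the most upstream annotated start is shown.
GAS5: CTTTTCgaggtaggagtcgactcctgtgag
SNHG1: CTCCTgtctgcaggatttacgcgcacgttg
SNHG5: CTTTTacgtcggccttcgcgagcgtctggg
SNHG8: CTTTCacattcgggaagcgtcgggattagg
SNHG12: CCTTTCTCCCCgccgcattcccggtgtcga
SNHG15: Cattaggggctcagcgcgtccctccaggcc
SNHG16: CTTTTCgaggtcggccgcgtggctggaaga
ZFAS1: CTTTCgcgtctgcggtgcccggagtgtggt
EPB41L4A-AS1: tgtcgggtcccaaaatacgtggtctaaagt
Of the 10 hosts, 8 had at least 1 annotated transcript with such a start, and SNHG15 and EPB41L4A-AS1 had 0. These were 6 of 29 transcripts in GAS5, 1 of 25 in SNHG1, 3 of 23 in SNHG5 and 3 of 5 in SNHG6. They were 1 of 5 in SNHG8, 4 of 17 in SNHG12, 2 of 8 in SNHG16 and 3 of 10 in ZFAS1, so most printed starts are minority ones. A gene with more transcripts has more chances of a match, and the share of all genes with such a transcript was not counted. In all, 23 of 136 host transcripts (16.9%) began this way, against 2.41% of the 206694 transcripts in the release. The match describes the annotation and was not measured in these cells.

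Each of the 3 hosts with a row holds 1 snoRNA row, inside the counted exons in SNHG8 and SNHG15 and outside them in EPB41L4A-AS1. SNHG8 (ENSG00000269893) is listed at chr4:118278709-118279823 on the plus strand, with 923 bases in 2 listed exon blocks that cover 82.8% of its span. EPB41L4A-AS1 (ENSG00000224032) is listed at chr5:112160526-112164276 on the plus strand, with 3344 exon bases, 89.1% of its span. SNHG15 (ENSG00000232956) is listed at chr7:44983023-44986961 on the minus strand, with 3647 exon bases, 92.6% of its span. The listed blocks merge all annotated isoforms and leave little of each gene out, so each row can count unspliced as well as spliced RNA. All 3 starts and ends equal those of GENCODE 29, which types the genes as lincRNA with 5, 4 and 10 transcripts in that order.

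**Figure D1:**
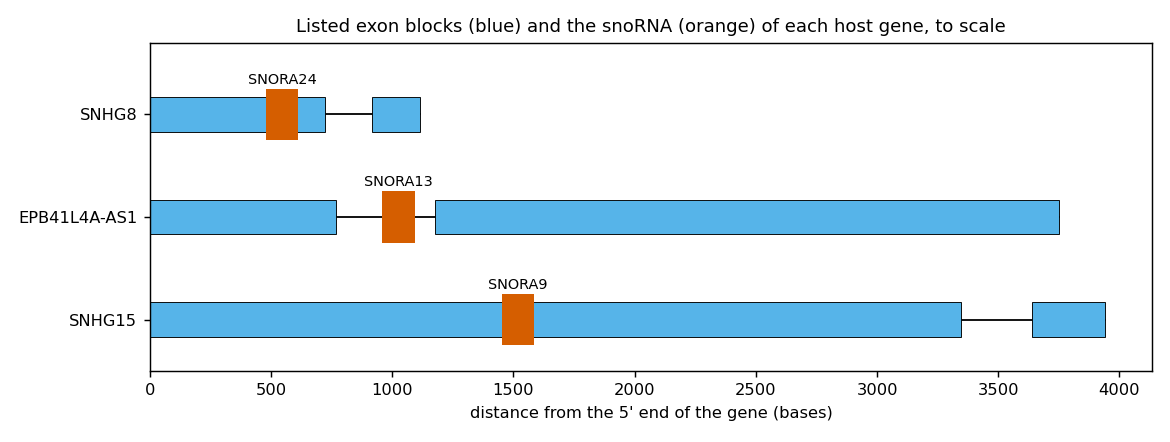
Maps of SNHG8, EPB41L4A-AS1 and SNHG15 to scale, as distance in bases from the 5′ end, with the exon blocks counted for the gene (blue boxes) and the snoRNA row inside it (orange). SNORA24 and SNORA9 lie wholly within counted blocks, and SNORA13 lies in the gap between the 2 blocks of EPB41L4A-AS1.

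The guest snoRNAs of these 3 genes are of the H/ACA class, which guides pseudouridylation and carries an ACA box near its 3′ end. They are printed because their place relative to the counted exons differs, with the ACA box that lies 3 bases from the 3′ end in capitals (GENCODE 29, GRCh38).
SNORA24: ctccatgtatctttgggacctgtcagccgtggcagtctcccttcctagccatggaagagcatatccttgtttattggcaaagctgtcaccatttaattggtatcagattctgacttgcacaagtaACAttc
SNORA13: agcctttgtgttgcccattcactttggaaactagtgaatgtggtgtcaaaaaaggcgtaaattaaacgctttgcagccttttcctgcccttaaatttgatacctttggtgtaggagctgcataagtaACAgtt
SNORA9: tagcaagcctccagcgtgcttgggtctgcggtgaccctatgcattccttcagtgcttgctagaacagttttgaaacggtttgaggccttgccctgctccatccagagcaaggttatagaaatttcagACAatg
Of 149 SNORA transcripts in the release, 112 (75.2%) have ACA at that position. SNORA24, at chr4:118279190-118279320 in SNHG8, has all 131 of its bases inside the exon blocks counted for its host and was listed at 0 counts in all 24 libraries. It is exonic in 1 of the 5 transcripts of SNHG8 and wholly intronic in the other 4. SNORA9, at chr7:44985378-44985510 in SNHG15, has all 133 bases inside its host's blocks and was also listed at 0 in all 24 libraries. It is exonic in 1 of the 9 transcripts that span it and wholly intronic in the other 8. SNORA13, at chr5:112161485-112161617, has 0 bases in its host's blocks, is intronic in all 4 transcripts of EPB41L4A-AS1, and had 633 counts over the 24 libraries. How reads that overlap 2 rows were counted is not given in the sources used here.

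Total counts ran from 10370645 to 97218217 per library. Levels are given as CPM, the counts scaled to a common library total by TMM (trimmed mean of M values). Per library, SNHG8 had 203 to 1490 counts, EPB41L4A-AS1 106 to 1191 and SNHG15 291 to 2958. The target fell in every line: ADAR was at 54.6 to 173 CPM in the 12 shADAR1 libraries against 276 to 527 CPM in the 12 shNT libraries, with edgeR adjusted p-values of at most 3.18e-05 and log2 fold changes from -2.19 to -1.43. Of the 6 epithelial markers, all were near 0 in BT549, where their summed level was 0.724 to 1.54 CPM against 935 to 5350 CPM in the other lines. In MDAMB231, KRT5 and CDH1 were also near 0, at most 0.0577 and 0.375 CPM, and EPCAM was at 6.49 to 10.9 CPM. KRT8, KRT18 and KRT19 made up its sum, at 196 to 558 CPM each. In BT549 the collagen genes COL1A1 (4420 to 6950 CPM) and COL3A1 (2540 to 3110 CPM) were high. The blood cell markers PTPRC and CD3E were at most 0.801 and 0.12 CPM in any line. CD68, from the same list, went the other way, at 78.4 to 99.0 CPM in MDAMB231 and 43.3 to 53.1 CPM in HCC1806. It was at 17.2 to 24.1 CPM in BT549 and 1.87 to 2.41 CPM in MDAMB468. ERBB2 was at 69.8 to 118 CPM over the 24 libraries, PGR at most 0.923 CPM, and ESR1 reached 26.8 CPM in HCC1806. The summed markers of blood, endothelial and fibroblast cells, nearly all collagen in BT549, were at 6970 to 8360 CPM in its shNT and 9390 to 9940 CPM in its shADAR1 libraries. The part of these markers in the results below was not tested.

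The levels of the 3 hosts differed between the control lines before any knockdown. In the joint edgeR quasi-likelihood test over the 4 shNT groups with Benjamini-Hochberg adjustment, all 3 hosts passed, at adjusted p 0.00107 for SNHG8, 2.83e-05 for EPB41L4A-AS1 and 2.1e-07 for SNHG15. That test called 85.9% of the 21352 genes tested, so the hosts were not set apart by it. Per kilobase of listed exon, SNHG8 was at 11.7 to 21.8 RPKM as control group means, SNHG15 at 5.41 to 12.5 RPKM and EPB41L4A-AS1 at 2.27 to 4.33 RPKM.

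SNHG8, the host of SNORA24, was highest in MDAMB231 (20.2 ± 1.68 CPM, SD, n = 3 here and for the levels that follow) and HCC1806 (18.4 ± 5.26 CPM), then MDAMB468 (13.5 ± 1.87 CPM) and BT549 (10.8 ± 2.3 CPM). MDAMB231 and HCC1806 did not differ beyond their spread (edgeR adjusted p 0.58), and neither did HCC1806 and MDAMB468 (0.0661) or MDAMB468 and BT549 (0.164). EPB41L4A-AS1 was ordered MDAMB468 (14.5 ± 1.36 CPM), HCC1806 (11.1 ± 1.74 CPM), MDAMB231 (8.33 ± 1.75 CPM) and BT549 (7.58 ± 0.782 CPM), and of the neighbours only MDAMB231 and BT549 were not separated (edgeR adjusted p 0.567). EPB41L4A, a gene on the other strand, overlaps 1659 listed exon bases of EPB41L4A-AS1, and its control means had the same order. They were 14.2, 7.69, 5.59 and 0.742 CPM, and the part of EPB41L4A reads in the host level was not tested. SNHG15 stood at 45.8 ± 1.75 CPM in MDAMB468, above 26.0 ± 2.74 in HCC1806, 21.6 ± 5.11 in MDAMB231 and 19.7 ± 2.46 in BT549. Its level in MDAMB468 exceeded that of each other line (edgeR adjusted p at most 5.99e-05). HCC1806 and MDAMB231 (0.127), and MDAMB231 and BT549 (0.561), were not separated, and HCC1806 and BT549 were (0.0282). Of all genes, the pairwise tests of BT549 called 63.5% against HCC1806, 56.5% against MDAMB231 and 61.0% against MDAMB468. Those of HCC1806 called 59.0% against MDAMB231 and 62.9% against MDAMB468, and MDAMB231 against MDAMB468 gave 61.8%.

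On knockdown the changes of the hosts were small. In the fit with 1 coefficient for each group, 0 of the 3 passed the threshold of adjusted p 0.05 in any line or in the mean of the 4 lines by edgeR, and DESeq2 also called 0. Over all genes the same fit called 2.01% in MDAMB231, 0.473% in BT549, 0.0468% in HCC1806, 0.0375% in MDAMB468 and 2.96% for the mean of the lines. At an unadjusted p under 0.05, 1 host was below in HCC1806 and 1 in the mean of the lines, EPB41L4A-AS1 both times, and 0 elsewhere. The share of all genes below that unadjusted cut is not given here, so this and later counts of the kind are descriptions only. Each library is bulk RNA, so fewer cells with an RNA and less RNA per cell cannot be told apart.

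Same-numbered shADAR1 and shNT libraries varied together in BT549, HCC1806 and MDAMB231, and their numbers were read as pairs there. With the replicate number as a block, SNHG8 and EPB41L4A-AS1 rose in HCC1806 and in the mean of the 4 lines, and SNHG15 rose in MDAMB231. These calls within a line were each lost on leaving out any 1 of the line's 3 numbered pairs, at edgeR adjusted p 0.0533 to 0.156 for SNHG8, 0.0761 to 0.317 for EPB41L4A-AS1 and 0.0899 to 0.207 for SNHG15. The blocked calls in the mean were kept on leaving out each of the 12 pairs, at adjusted p of at most 0.00635 for SNHG8 and 0.0374 for EPB41L4A-AS1. The blocked mean also takes in MDAMB468, where the numbers did not pass as pairs. This blocked fit called 2.1% of all genes in HCC1806, 11.4% in MDAMB231, 5.14% in BT549, 1.66% in MDAMB468 and 13.2% for the mean (7.25% as rises). Without the block the median log2 change of the 3 hosts was 0.34 in HCC1806, 0.25 in MDAMB231, 0.15 in MDAMB468 and -0.01 in BT549, where the medians of all genes lay between 0.00 and 0.01. For the mean of the lines they were 0.19 for the hosts and 0.02 for all genes.

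**Figure D2:**
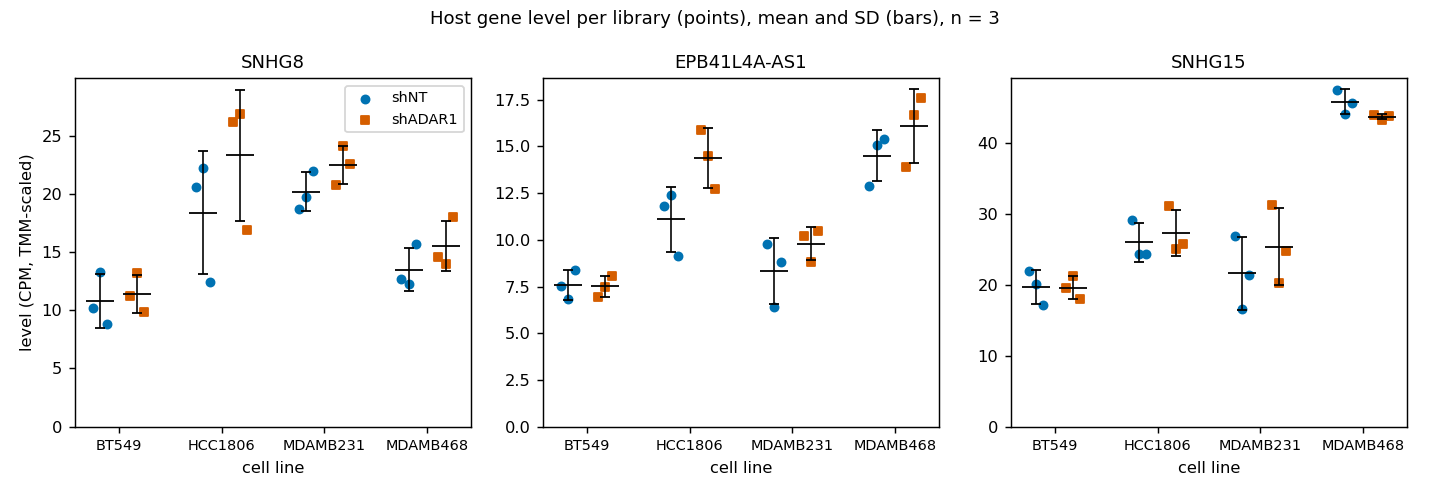
Level of each host (CPM, vertical axis, from 0) in every library of the 4 lines; points are libraries (blue circles shNT, orange squares shADAR1) and bars show the mean and SD of 3. The arms overlap everywhere except EPB41L4A-AS1 in HCC1806 (shADAR1 above) and SNHG15 in MDAMB468 (shADAR1 below), and SNHG15 stands highest in MDAMB468.

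SNHG8 in HCC1806 was at 20.6, 22.2 and 12.4 CPM in shNT replicates 1, 2 and 3 and at 26.2, 26.9 and 16.9 CPM in shADAR1. Replicate 3 was the lowest library of both arms, the arms overlapped, and the shADAR1 library was higher within each number. The log2 fold change was 0.34 (SE 0.201, edgeR adjusted p 1; 0.12 to 0.55 on leaving out each library of the line) without the block and 0.35 (SE 0.0776, edgeR adjusted p 0.0162) with it. In MDAMB231 the levels were 18.7, 19.7 and 22.0 CPM against 20.8, 24.1 and 22.6 CPM (0.16, SE 0.203). In MDAMB468 they were 12.7, 12.3 and 15.7 CPM against 14.6, 14.0 and 18.0 CPM (0.20, SE 0.202). In both lines the arms overlapped and all 3 shADAR1 libraries were above the same-numbered control. BT549 had 10.2, 13.3 and 8.79 CPM against 11.2, 13.2 and 9.88 CPM (0.09, SE 0.202), with the highest library in the control arm. Over the lines SNHG8 was higher in 11 of 12 same-numbered comparisons, a count that 3.93% of all genes reached. Its mean change was 0.20 (95% interval -0.01 to 0.40, edgeR adjusted p 0.436), and 0.20 (0.12 to 0.28, adjusted p 0.00126) with the block.

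EPB41L4A-AS1, the host of SNORA13, overlaps the gene EPB41L4A on the other strand over 1659 of its listed exon bases. Since counting is not stated to use strand, reads of the 2 genes cannot be told apart there, and EPB41L4A itself had a mean change of 0.33 (edgeR adjusted p 0.0936). With the block EPB41L4A also rose, by 0.32 in the mean (edgeR adjusted p 0.00429) and by 0.50 in MDAMB468 (0.0337). In HCC1806, EPB41L4A-AS1 was at 11.8, 12.4 and 9.13 CPM in shNT and 15.9, 14.5 and 12.7 CPM in shADAR1, so the lowest shADAR1 library lay just above the highest control. A separation of that kind and direction was found for 4.38% of all genes in HCC1806. The change was 0.37 (SE 0.158, edgeR adjusted p 1), and 0.37 (SE 0.0972, adjusted p 0.0466) with the block. In MDAMB231 the levels were 9.78, 6.39 and 8.82 CPM against 10.2, 8.8 and 10.5 CPM (0.25, SE 0.164), and in MDAMB468 12.9, 15.1 and 15.4 CPM against 13.9, 16.7 and 17.6 CPM (0.15, SE 0.157). All 3 shADAR1 libraries were above their numbered control in both lines, with overlapping arms. In BT549, where EPB41L4A on the other strand was at 0.657 to 1.13 CPM, EPB41L4A-AS1 had 7.54, 6.81 and 8.37 CPM against 6.95, 7.5 and 8.08 CPM (-0.01, SE 0.159). EPB41L4A-AS1 was higher in 10 of 12 same-numbered comparisons, as were at least that many for 8.57% of all genes. The mean change was 0.19 (0.03 to 0.36, edgeR adjusted p 0.279), and 0.20 (0.09 to 0.30, adjusted p 0.00921) with the block.

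SNHG15, the host of SNORA9, had the smallest mean change. In MDAMB231 it was at 26.9, 16.6 and 21.4 CPM in shNT and 31.2, 20.3 and 24.8 CPM in shADAR1. The arms overlapped, replicate 1 was the highest and replicate 2 the lowest in both, and each shADAR1 library exceeded its numbered control. The change there was 0.25 (SE 0.155, edgeR adjusted p 0.606), and 0.24 (SE 0.0728, adjusted p 0.0352) with the block. HCC1806 had 29.2, 24.4 and 24.4 CPM against 31.1, 25.0 and 25.8 CPM (0.07, SE 0.151), and BT549 22.0, 20.1 and 17.1 CPM against 19.5, 21.2 and 18.0 CPM (-0.01, SE 0.151). MDAMB468 went the other way: 47.5, 44.1 and 45.7 CPM against 44.0, 43.3 and 43.8 CPM (-0.07, SE 0.15). There the 3 shADAR1 libraries lay below all controls, a separation found downward for 4.3% of all genes, by a margin that did not pass the edgeR test (adjusted p 1). The mean change was 0.06 (-0.10 to 0.22, edgeR adjusted p 0.878), and 0.06 (-0.01 to 0.13, adjusted p 0.326) with the block.

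**Figure D3:**
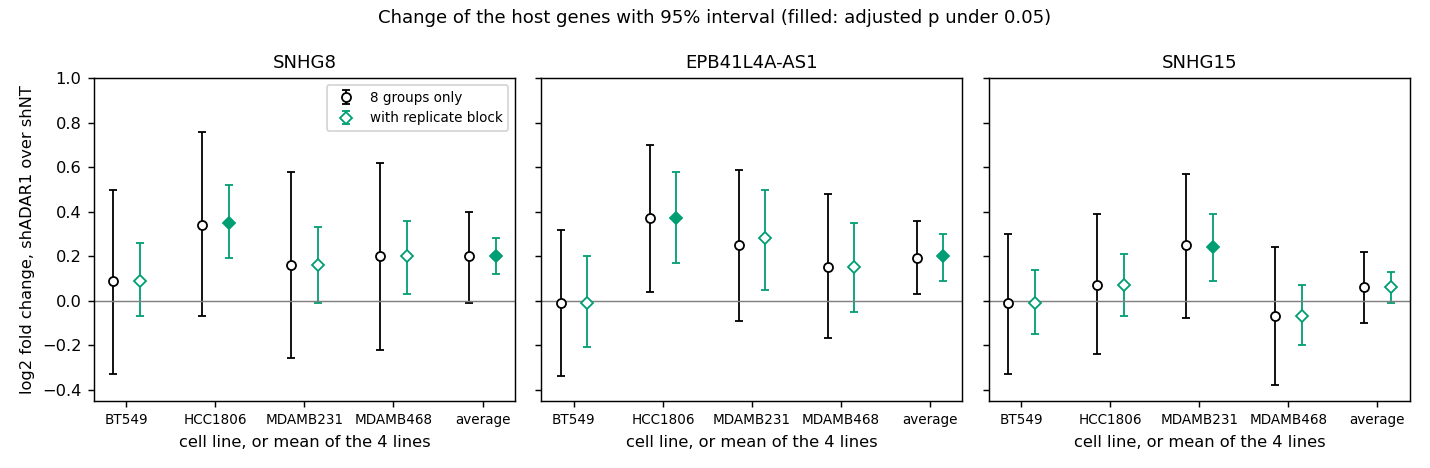
Log2 fold change of shADAR1 over shNT (vertical axis) for each host in each line and as the mean of the 4 lines, without (black circles) and with (green diamonds) the replicate block; bars are 95% intervals and filled symbols passed adjusted p 0.05. Filled symbols occur only with the block: SNHG8 and EPB41L4A-AS1 in HCC1806 and in the mean, and SNHG15 in MDAMB231.

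The 3 changes were not shown to differ between lines. The joint edgeR test of equal change in the 4 lines gave adjusted p-values of 1 for each host (0 of 3 called by edgeR or DESeq2, 0 at an unadjusted p under 0.05, and 0.0234% of all genes called). With the block they were 0.475 for SNHG8, 0.332 for EPB41L4A-AS1 and 0.227 for SNHG15, where SNHG15 had an unadjusted p of 0.0329 and 4.69% of all genes were called. Within lines the hosts varied together only in part. After centring each line on its mean, Pearson's r over 24 libraries was 0.484 between SNHG8 and EPB41L4A-AS1, 0.48 between EPB41L4A-AS1 and SNHG15 and 0.183 between SNHG8 and SNHG15. These libraries share arms and depths, so r is a description only.

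The remaining hosts can be seen only through rows inside them. The tables hold 25 such rows on the host's strand in 9 of the 10 genes, 22 typed as snoRNA and 3 as misc_RNA, and 23 passed the filter on low counts. The 3 misc_RNA rows, RF02215, RF02216 and RF02217, carry names of Rfam families and lie in ZFAS1, whose introns hold SNORD12, SNORD12B and SNORD12C. RF02216 (chr20:49279116-49279208, plus strand) is exonic in all 8 transcripts that span it and so reports on ZFAS1 exons. RF02217 (chr20:49280485-49280571, plus strand) is wholly exonic in 1 of 9 spanning transcripts and wholly intronic in 1, and in the others it is exonic in part. SNORD12C and SNORD12B are intronic in every transcript that spans them. RF02216 and RF02217 are printed because the changes described next fall on them (GENCODE 29, GRCh38, no part in capitals).
RF02216: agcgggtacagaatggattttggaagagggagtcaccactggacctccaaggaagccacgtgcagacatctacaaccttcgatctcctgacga
RF02217: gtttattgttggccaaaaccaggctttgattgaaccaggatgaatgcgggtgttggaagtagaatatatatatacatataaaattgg
No row on the other strand overlaps either of them, as the listed end of ZNFX1, the opposite-strand neighbour, lies at 49278426.

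In ZFAS1, 2 of the misc_RNA rows rose in the mean of the 4 lines, and the snoRNA rows were not called. These rows were chosen for description after their values had been seen. RF02216 in HCC1806 was at 16.5, 12.9 and 11.3 CPM in shNT and 22.9, 20.7 and 20.2 CPM in shADAR1, with no overlap between the arms, an upward separation found for 4.38% of all genes there. Its change there was 0.66 (SE 0.176, edgeR adjusted p 0.372), and 0.67 (SE 0.12, adjusted p 0.00372) with the block, which was lost without the pair numbered 3 (0.60, adjusted p 0.074). In MDAMB231 it was at 7.11, 7.99 and 10.8 CPM against 13.6, 10.2 and 11.5 CPM (0.42, SE 0.181, edgeR adjusted p 0.339), with overlap of 1 control library. BT549 had 11.5, 12.7 and 10.8 CPM against 11.9, 14.5 and 11.6 CPM (0.12, SE 0.174), and MDAMB468 13.3, 10.5 and 11.2 CPM against 12.5, 10.7 and 16.3 CPM (0.18, SE 0.176). The arms overlapped in both, and in MDAMB468 the highest library was shADAR1 replicate 3. Over the 4 lines RF02216 rose by a mean of 0.34 (0.16 to 0.53, edgeR adjusted p 0.0318), higher in 11 of 12 same-numbered comparisons (at least 11 for 3.93% of all genes), and by 0.34 (adjusted p 0.00063) with the block. Of all genes, 1.26% were called as rises in that mean without the block. Without the block this call was lost, at adjusted p 0.0553 to 0.0759, on leaving out any of 12 libraries: BT549 shADAR1 replicate 2 or shNT replicates 1 or 3, HCC1806 shADAR1 replicate 1 or shNT replicates 2 or 3, MDAMB231 shADAR1 replicate 1 or shNT replicates 1 or 2, and MDAMB468 shADAR1 replicate 3 or shNT replicates 2 or 3.

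RF02217 also had its largest change in HCC1806. There it was at 9.15, 6.91 and 6.8 CPM in shNT and 18.3, 10.9 and 15.4 CPM in shADAR1, every shADAR1 library above every control, as for 4.38% of all genes in that line. The change was 0.97 (SE 0.218, edgeR adjusted p 0.201), 0.95 (adjusted p 0.00122) with the block and 0.96 by DESeq2 (adjusted p 0.0117). The other lines had overlapping arms, with changes of 0.10 (SE 0.216) in BT549, 0.25 (SE 0.225) in MDAMB231 and 0.30 (SE 0.217) in MDAMB468. Over the lines it rose by a mean of 0.41 (0.18 to 0.63, edgeR adjusted p 0.0432), and by 0.40 (adjusted p 0.001) with the block. Without the block the call was kept only on leaving out 8 of the 24 libraries: BT549 shNT replicate 3, HCC1806 shADAR1 replicate 2 or shNT replicate 1, MDAMB231 shADAR1 replicates 2 or 3 or shNT replicate 3, and MDAMB468 shADAR1 replicate 2 or shNT replicate 3. Leaving out any of the other 16 gave adjusted p 0.0562 to 0.101. Neither piece passed the joint test for unequal change among lines (edgeR adjusted p 1 for both, 0.152 for RF02216 and 0.0602 for RF02217 with the block). RF02215 had 106 counts in all 24 libraries together, which is too few for a change to be read (edgeR adjusted p 0.0961 for the mean).

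**Figure D4:**
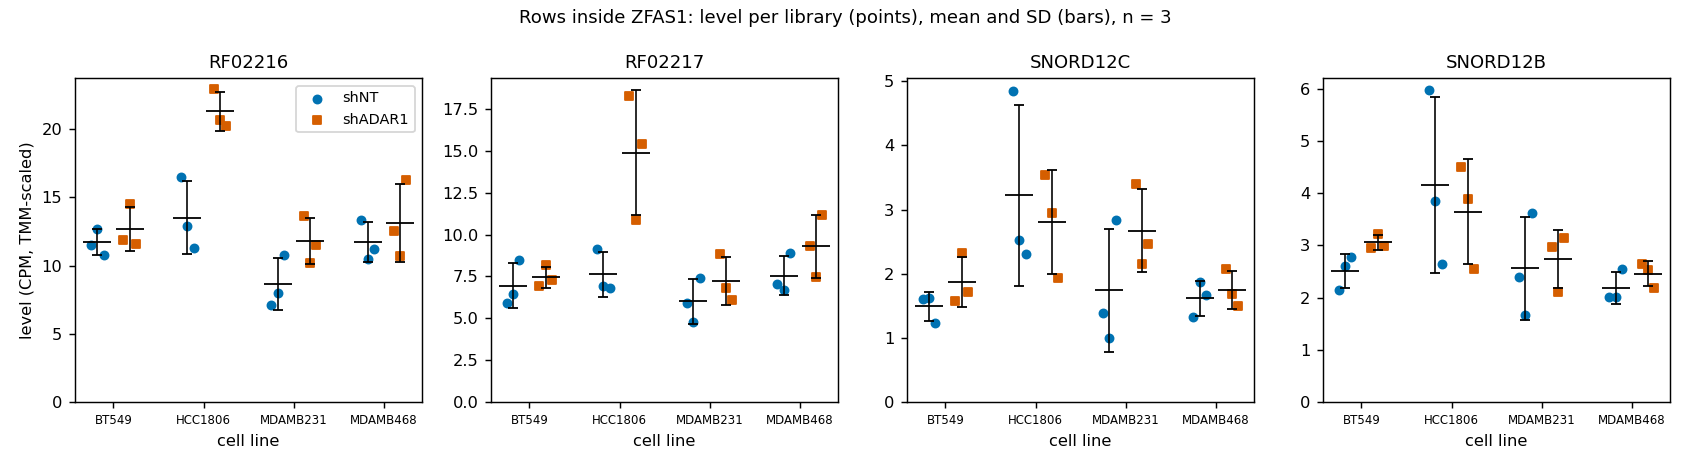
Level (CPM, vertical axis, from 0) in every library for 2 misc_RNA rows of ZFAS1 (RF02216, RF02217) and 2 of its intronic snoRNAs (SNORD12C, SNORD12B); points are libraries (blue circles shNT, orange squares shADAR1) and bars show the mean and SD of 3. In HCC1806 the shADAR1 libraries of RF02216 and RF02217 stand above all controls, and those of both snoRNAs lie within the range of the controls or below it.

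SNORD12C and SNORD12B, box C/D guides for ribose methylation, did not separate the arms in HCC1806. SNORD12C was at 4.84, 2.52 and 2.3 CPM in shNT and 3.54, 2.94 and 1.94 CPM in shADAR1 (-0.18, SE 0.341). SNORD12B was at 5.98, 3.85 and 2.65 CPM against 4.51, 3.89 and 2.55 CPM (-0.18, SE 0.29). Replicate 1 was the highest of each arm for both. As log2 of RF02216 over the summed counts of the 2 snoRNAs, the exon-to-intron ratio of ZFAS1 in HCC1806 was 0.61, 1.01 and 1.19 in shNT and 1.51, 1.60 and 2.17 in shADAR1, a difference of 0.82 between the group means with no overlap. In BT549 the arms did not overlap either, in the other direction: 1.61, 1.59 and 1.44 in shNT against 1.39, 1.39 and 1.30 in shADAR1, a difference of -0.19. MDAMB231 (0.05) and MDAMB468 (0.01) had overlapping arms. The mean over the 4 lines was 0.18 (exact permutation test within lines, 2-sided, p = 0.244, 0.244 after Benjamini-Hochberg adjustment over 2 hosts). Within a line, 3 against 3 libraries cannot give an exact 2-sided p below 0.1, so the value in HCC1806 has no test of its own.

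The same ratio for EPB41L4A-AS1, its exon row over the intronic SNORA13, had a higher mean with shADAR1 in each line, by 0.88 in HCC1806, 0.42 in MDAMB468, 0.32 in MDAMB231 and 0.30 in BT549. Reads of EPB41L4A on the other strand can enter the exon row, as described above, and their part in the ratio was not tested. The lower term of both ratios is a snoRNA row or rows, not a count of whole introns. In HCC1806 the ratio was 3.74, 3.97 and 4.80 in shNT and 5.35, 5.57 and 4.23 in shADAR1, so replicate 3 went the other way. The arms overlapped in all 4 lines, and 1 of the 3 numbered pairs went the other way in each. The mean was 0.48 (exact permutation test within lines, 2-sided, p = 0.0485, 0.097 after Benjamini-Hochberg adjustment over 2 hosts), so the difference did not pass after adjustment. SNORA13 had only 10 to 60 counts per library, and its own mean change was -0.32 (SE 0.27, edgeR adjusted p 0.727). The unadjusted p ran from 0.0269 to 0.116 on leaving out each library in turn. Both permutation tests exchanged libraries freely within a line and did not use the numbered pairs. Both ratios were chosen after the values of the rows had been seen.

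The 20 snoRNA rows that passed the filter lie in SNHG1, SNHG5, SNHG6, SNHG12, SNHG16, ZFAS1 and EPB41L4A-AS1, and 0 of them was called in any line or in the mean, by edgeR with or without the block or by DESeq2. Of these rows, 5 were intronic in every host transcript and 15 overlapped exons of some or all. A snoRNA row does not measure the spliced host RNA. For SNHG1, SNHG5, SNHG6, SNHG12 and SNHG16 a change in that RNA was therefore not assessed. Over all 23 rows, 3 had an unadjusted p under 0.05 in the mean of the lines and in BT549, 2 in HCC1806 and in MDAMB231, and 0 in MDAMB468, the misc_RNA rows among them. The median snoRNA row was at -0.17 in HCC1806, -0.06 in MDAMB468, 0.11 in MDAMB231, 0.23 in BT549 and 0.08 for the mean of the lines. In HCC1806, 7 of the 20 were above 0, and in BT549 16 of 20. Their low counts leave wide limits: the largest value in a line, SNORD1B in BT549 at 1.81, had an interval of -0.21 to 3.84 and 0 counts in shNT replicates 1 and 2.

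**Figure D5:**
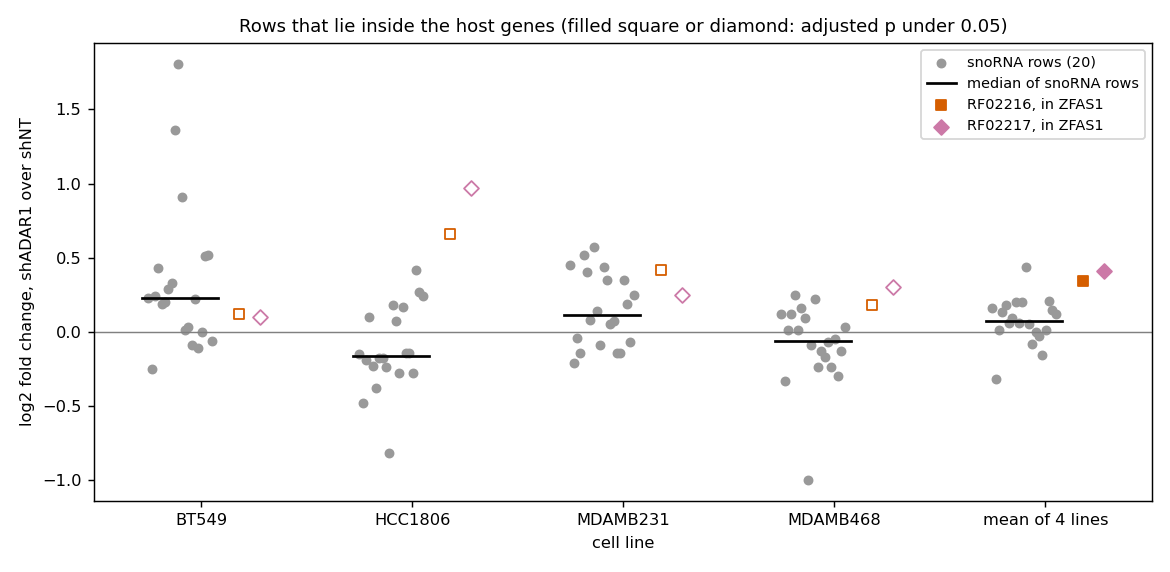
Log2 fold change of shADAR1 over shNT (vertical axis) in each line and as the mean of the 4 lines for the 20 snoRNA rows inside host genes (grey, black line at their median) and for RF02216 and RF02217 in ZFAS1; filled squares or diamonds passed adjusted p 0.05. In HCC1806 both ZFAS1 pieces lie above all snoRNA rows, and they are filled for the mean of the lines only.

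Host by host, no snoRNA row passed the test. The 7 rows of SNHG1, the host of a cluster of box C/D snoRNAs, had mean changes from -0.16 (SNORD28) to 0.16 (RF00099). Of the 4 rows of SNHG12, SNORA61 had the highest mean change (0.18, edgeR adjusted p 0.561). In MDAMB231 SNORA61 was at 3.51, 3.65 and 5.61 CPM against 6.99, 5.42 and 6.23 CPM, with overlap (0.52, edgeR adjusted p 0.362). The 3 rows of SNHG16 had mean changes of 0.44 (SNORD1C), 0.20 (SNORD1B) and 0.06 (SNORD1A). SNORD50B in SNHG5 was at 0.21 and SNORD87 in SNHG6 at 0.15.

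Genes around the same pathway were counted from lists of known function. Of 16 other noncoding snoRNA hosts 6 had a row, and 0 of the 6 was called in the mean of the lines by edgeR or DESeq2 (1 at an unadjusted p under 0.05; median 0.10). Without the block SNHG32 was the one called within a line: in HCC1806 it rose from 68.5, 66.2 and 66.3 CPM to 115, 88.7 and 106 CPM (0.63, SE 0.114, edgeR adjusted p 0.0348), with no overlap, an upward separation found for 4.38% of all genes there. That call was kept on leaving out HCC1806 shADAR1 replicate 2 (adjusted p 0.0111) and lost on leaving out any of the other 5 libraries of the line (0.0837 to 0.396) or in a fit on its 6 libraries alone (1). SNHG32 was not called in BT549 (-0.24), MDAMB231 (-0.09) or MDAMB468 (0.12), and the joint test of a difference gave an edgeR adjusted p of 0.113, or 0.000379 with the block. With the block SNHG19 (0.58, edgeR adjusted p 0.0391) and SNHG25 (1.04, 0.0312) also rose, both in MDAMB231 and both named after their values were seen. Without it they were at 0.53 (0.476) and 1.08 (0.158). Of 18 protein-coding snoRNA hosts 0 was called in the mean by edgeR or DESeq2 (2 at an unadjusted p under 0.05; median 0.05). With the block 4 of them rose, as did 7.25% of all genes.

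Of 18 factors of nonsense-mediated decay, 0 was called in the mean by edgeR with or without the block or by DESeq2 (0 at an unadjusted p under 0.05, 6 with the block), and their median of 0.01 was close to that of all genes at 0.02. The blocked mean called 13.2% of all genes even after adjustment, so the 6 are not read as a response of these factors. Of 14 coding genes known as targets of that decay 1 rose in the mean and 0 fell, where 1.26% of all genes rose. With the block 6 rose and 1 fell, where 7.25% of all genes rose. The gene called without the block was MAP3K14, a kinase of the alternative NF-κB pathway, at 0.35 (SE 0.0544, edgeR adjusted p 0.000251). It was higher in 12 of 12 same-numbered comparisons (1.33% of all genes). Of 8 core proteins of snoRNA particles 0 was called in the mean by edgeR or DESeq2 (0 at an unadjusted p under 0.05).

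Of 23 genes that control translation 3 rose in the mean and 0 fell, and 7 rose with the block. Of all genes, 1.26% rose in the mean without the block and 7.25% with it. EIF4EBP2, a repressor of cap-dependent initiation, rose by 0.54 (SE 0.0558, edgeR adjusted p 1.12e-06), from 102 to 127 CPM in the controls of MDAMB231 to 197 to 226 CPM. Its change was called in MDAMB231 (0.95) and BT549 (0.75) and not in MDAMB468 (0.28) or HCC1806 (0.18), and the joint test for unequal change gave an edgeR adjusted p of 0.109, or 5.56e-05 with the block. DCP2, the enzyme that removes the cap of mRNAs, rose by 0.27 (SE 0.0542, edgeR adjusted p 0.00359). EIF4EBP1, outside the naming rule and named after its value was seen, was the other. Of 79 cytosolic ribosomal protein genes, the classic TOP mRNAs, 1 rose in the mean, RPL15 (0.19, SE 0.0494, edgeR adjusted p 0.0416), and 7 with the block. RPL15 was at 0.42 in MDAMB231, 0.23 in BT549, 0.05 in MDAMB468 and 0.04 in HCC1806, and the joint test for unequal change gave an edgeR adjusted p of 1, or 0.0194 with the block. Its call in the mean was kept only on leaving out 8 of the 24 libraries (BT549 shADAR1 replicates 1 or 3 or shNT replicate 2, HCC1806 shADAR1 replicate 2 or shNT replicate 3, MDAMB231 shADAR1 replicate 3 or shNT replicate 2, and MDAMB468 shNT replicate 1), with adjusted p of up to 0.0947 on leaving out the others. In MDAMB231 all 79 had a value above 0, with a median of 0.18, as had all 18 coding snoRNA hosts, with a median of 0.16; 22 of the 79 and 4 of the 18 rose there with the block, as did 5.08% of all genes.

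The genes whose level moved most like that of the hosts were picked by Pearson's r with the mean of the 3 hosts over the 24 libraries, each centred on its line, among 10997 genes of at least 2 on the log2 CPM scale. Among the highest 5 were EXOSC9 (0.847), SCLT1 (0.838), PSMG3 (0.83) and MCL1 (0.829). As the highest of many, these values are a description.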

How the data were processed

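RNA was sequenced in 24 libraries. The deposited values are raw read counts per gene, which per the submitters' processing notes came from STAR and featureCounts; versions, the genome build, the annotation and strand use are not given in the sources used here. Coordinates were compared with GENCODE 29 (GRCh38), which holds 34265 of the 37416 deposited count rows, 31357 with the same start and end. Of all rows, 5628 were 0 everywhere.

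Counts were tested with edgeR 4.0.16 (quasi-likelihood F test, TMM, filterByExpr, 21352 genes, R 4.3.3), 1 coefficient for each of the 8 groups. P-values were 2-sided and Benjamini-Hochberg adjusted across the tested genes, and an adjusted p under 0.05 counted as called. CPM and RPKM were computed from the deposited counts and listed exon lengths. DESeq2 1.42.0, a replicate block, other scalings and filters and leaving out each library were alternatives, and leaving out each numbered pair under the block was added after seeing the data. Replicates are labelled biological, and nothing says they share a culture or day.

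Same-numbered arms correlated at 0.139 to 0.443 in BT549, HCC1806 and MDAMB231, each over 0.1, and at 0.0651 to 0.166 in MDAMB468. On counts simulated for BT549 (20833 genes) the test recovered 54 of 100 genes changed 1.5-fold and 82 of 100 changed 2-fold, with 4 false calls. The largest host change in a line without the block, EPB41L4A-AS1 in HCC1806, was 1.29-fold, below both simulated sizes. Recovery in the other lines and with the block was not simulated. Named were all hosts, rows inside them, for each other list the 2 genes of smallest p among those past the threshold in the mean of the lines (or in any line where none passed), and the 5 genes most like the hosts, of which 1 is not reported here. Members and lists were chosen with earlier results of these data known.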

Additional observations from a re-analysis of the deposited data

How the results depend on the processing

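With the replicate block, the hosts called numbered 2 in HCC1806, 1 in MDAMB231 and 2 in the mean of the lines, against 0 without it, and the rows inside hosts called in HCC1806 numbered 2 against 0. DESeq2 called 1 of those rows there. Pairing by number changed no call of a host in BT549 or MDAMB468. Over the other scalings, filters, subsets and DESeq2, no call of a host changed. The value of EPB41L4A-AS1 in BT549 went from -0.01 to 0.00 with no filter on low counts. Without the block, where 0 hosts were called, leaving out 1 library brought in no host, and called changes could not be lost. The blocked calls of hosts within a line did not survive leaving out a numbered pair, and those in the mean did. Leaving out 1 library gave 0 to 1 rows inside hosts called in HCC1806 and 0 to 2 in the mean, where the main counts were 0 and 2, and a ratio for EPB41L4A-AS1 of 0.34 to 0.58. Changes near 0 crossed it on leaving out a library: SNHG8 in BT549 (-0.04 to 0.27), EPB41L4A-AS1 in BT549 (-0.08 to 0.07), SNHG15 in BT549 (-0.10 to 0.07) and HCC1806 (-0.03 to 0.16), and RF02216 in MDAMB468 (-0.02 to 0.31). Wider moves on the same side of 0 were those of SNHG8 in HCC1806 (0.12 to 0.55), SNHG15 in MDAMB231 (0.08 to 0.41) and EPB41L4A-AS1 in MDAMB231 (0.08 to 0.36). The cause was not tested. Counts of 10 to 60 per library for SNORA13, and fewer for SNORD1B, limit what the snoRNA rows can show.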
